A study of Mus musculus with 39 samples.

Results

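The libraries compared here came from 39 mice whose sample titles carry a number. Of these, 18 carried title numbers 1 to 18 and 21 carried title numbers 49 to 69, which together are all 39 libraries of the series. They are called low-numbered and high-numbered below. The members of each group were taken by title number alone. The labels do not say what the numbers stand for and name no batch, date or lane.

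All mice were female C57BL/6JRccHsd mice, weaned at 21 days and fed 1 of 3 isocaloric diets until they were killed in the fed state at 42 days. The diets differed in the sugar they held, which was galactose with glucose, glucose alone, or lactose. The low-numbered libraries held 6 mice on each diet and the high-numbered libraries 7 mice on each diet, so the diets were balanced between them. The labels name no other treatment, and mice were spread over the diets by body weight. Neighbouring title numbers formed 13 sets of 3, each with 1 mouse of each diet, 6 sets among the low and 7 among the high numbers. RNA came from mucosa scraped off the proximal part of the small intestine after removal of the upper duodenum. The labels describe the scrapings as mainly enterocytes, the absorptive cells of the villus, and a scraping can carry other cells of the wall. In such bulk RNA, fewer cells of a type and less RNA per cell cannot be told apart.

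Many mammalian genes have near-identical copies elsewhere in the genome. Most copies are processed pseudogenes, made when a messenger RNA was copied back into DNA, and others are stretches of mitochondrial DNA that lie in a nuclear chromosome. A short read from such a gene can match its source and its copy almost equally well, so the count of each can depend on where the read is placed.

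Most of the genes that differed between low-numbered and high-numbered mice were such copies. The first pair shown is mt-Co3, the mitochondrial gene for cytochrome c oxidase subunit 3, and its nuclear copy Gm28437, an unprocessed pseudogene on chromosome 1. The 783 aligned bases of this pair held 0 differences. Bases 1 to 120 of both are given because mt-Co3 had the smallest p of the called genes that have a symbol other than a Gm or Rik model name.
mt-Co3: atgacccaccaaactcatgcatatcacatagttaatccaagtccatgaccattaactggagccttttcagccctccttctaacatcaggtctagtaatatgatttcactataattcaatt
Gm28437: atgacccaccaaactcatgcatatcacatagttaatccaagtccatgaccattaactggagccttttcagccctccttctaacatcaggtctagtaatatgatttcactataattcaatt
The second pair is mt-Nd3, for a subunit of complex I, and its copy Gm28438, also on chromosome 1, with 1 difference over 345 aligned bases. Capitals mark the base that differs.
mt-Nd3: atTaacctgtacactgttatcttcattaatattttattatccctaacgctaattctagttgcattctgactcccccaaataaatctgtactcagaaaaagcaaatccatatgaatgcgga
Gm28438: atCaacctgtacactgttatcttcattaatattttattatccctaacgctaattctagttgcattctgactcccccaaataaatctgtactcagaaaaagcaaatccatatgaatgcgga
The last pair stands for the processed pseudogenes. It is Rps13, a protein of the small ribosomal subunit encoded on chromosome 7, and Rps13-ps1 on chromosome 8, with 2 differences over 453 aligned bases, both in the 120 bases shown.
Rps13: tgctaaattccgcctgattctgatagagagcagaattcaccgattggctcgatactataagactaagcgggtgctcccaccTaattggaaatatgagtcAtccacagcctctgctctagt
Rps13-ps1: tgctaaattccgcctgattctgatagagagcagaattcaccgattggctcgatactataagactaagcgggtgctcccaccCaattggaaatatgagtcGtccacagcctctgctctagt
These sequences are GENCODE M21 transcripts of the GRCm38 build, the coding part where the gene is coding, while the counts were made on GRCm39. No position in the genome is given for that reason.

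The libraries were alike in depth, with 19690000 to 21350000 counts assigned to genes in the low-numbered and 19980000 to 21210000 in the high-numbered. Of 8 library measures, tested by permutation within diet with 100000 resamples, two-sided, none differed after adjustment over the 8. They included reads aligned to more than 1 place, at 4.58 to 9.93%, mean 6.07%, in low-numbered and 4.83 to 8.35%, mean 6.04%, in high-numbered libraries (permutation test, adjusted p = 0.937). Without title number 11, a low-numbered galactose mouse, the adjusted permutation p of the assigned counts was 0.0357. The split of the title numbers accounted for 0.153% of the first principal component of expression and for 3.61 to 15% of the next 5.

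Of 15339 genes tested with diet as a covariate, 132 differed between low-numbered and high-numbered mice at an adjusted p under 0.05, which is 0.861% (quasi-likelihood F test of edgeR, Benjamini-Hochberg adjustment over all genes). Here and below, called means past that threshold, and a log2 fold change is that of low-numbered over high-numbered mice. Called higher were 30 genes (0.196%) and called lower 102 (0.665%). The median log2 fold change of all tested genes was 0.01, and 2028 genes had an unadjusted p under 0.05. When the counts of the 3 mice of each set of neighbouring numbers were summed, so that 6 sums stood against 7, no gene was called and 1394 of 16838 genes had an unadjusted p under 0.05. With the sets as a random block in limma 53 genes were called, and DESeq2 called 227.

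Of the 102 genes called lower, 78 were annotated as pseudogenes, out of 628 pseudogenes tested, and 2 pseudogenes were called higher. The median log2 fold change over all 628 was -0.24. Of the 13324 protein-coding genes tested 28 were called higher and 23 lower, with a median of 0.02. All of the 78 pseudogenes shared 50-base words with another gene in the annotation, and 75 of those 78 had a more abundant such gene among those tested. For 35 of the 78 the most abundant such gene carried the name of a ribosomal protein gene, Rps10-ps2, named as a pseudogene, among them. For 9 it was Gapdh, the glycolytic enzyme. The median log2 fold change of the 78 pseudogenes was -0.81, a value set in part by their having been called lower. Taking for each pseudogene only the most abundant tested gene with which it shared words left 60 different genes, with a median of -0.09. These genes were not chosen by fold change, so the medians do not test a difference between copies and sources. Of these 60, 5 were called, namely mt-Co2, mt-Co3, mt-Nd3 and the processed pseudogenes Gm9385 and Gm12254, which were named after their values were seen.

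Among genes ordered by how much of their transcript occurs in another gene, the lower calls were concentrated at the top. The measure is the share of a gene's 100-base words, on either strand, found in transcripts of another gene. The 8727 genes with none had a median log2 fold change of 0.02, with 15 genes called higher and 7 lower. Among 664 genes sharing over 25 to 50%, 2 were called higher and 15 lower. Among 315 genes sharing over 50 to 75%, 19 were lower. Among 123 genes sharing over 75 to 90%, 12 were lower. Of the 136 genes sharing over 90%, 32 were lower and 0 higher, with a median of -0.36 and 80.1% of the genes below 0.

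**Figure D1:**
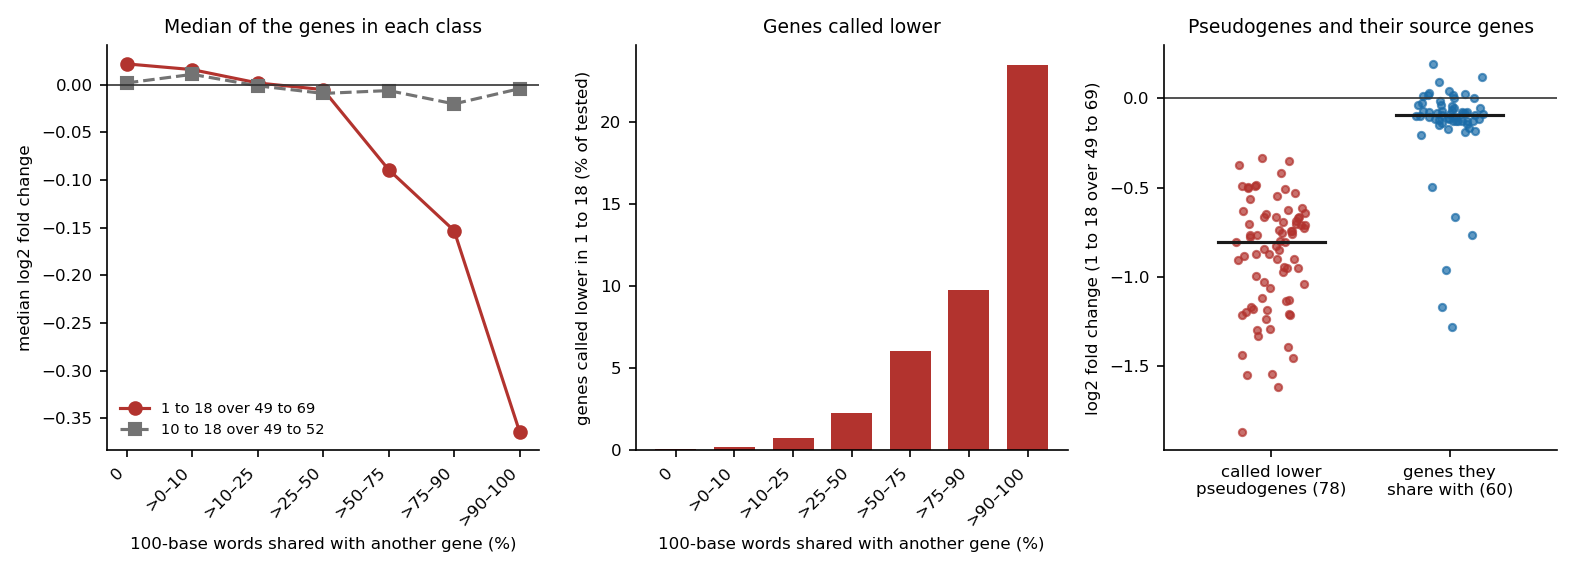
Left, the median log2 fold change of the tested genes in classes of the share of 100-base words found in another gene, for all libraries (circles) and for title numbers 10 to 18 over 49 to 52 (squares). Middle, the percentage of genes called lower in each class, which reached 23.5% in the top class. Right, each called-lower pseudogene and the most abundant tested gene with which it shares words, with bars at the medians of -0.81 and -0.09. The pseudogenes shown were chosen as called lower and the other genes were not, so these medians do not test a difference.

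The pseudogenes called were lower by a median of 1.75-fold, and the source genes given below did not pass the test. Tpt1-ps3 is a copy of Tpt1, the gene for translationally controlled tumour protein, with 0 differences over 516 aligned bases. It had 13.3 to 24.9 CPM, median 17.1, in low-numbered mice, against 14.1 to 34.6 CPM, median 28.0, in high-numbered mice (log2 fold change -0.54 ± 0.11 SE, adjusted p = 0.00457). CPM are counts scaled to library size, and do not allow for gene length. Every low-numbered library lay below the mean of the high-numbered ones, and the groups overlapped. Tpt1 itself averaged 876 ± 93.5 CPM in low-numbered and 922 ± 91.9 CPM in high-numbered mice (SD, n = 18 and 21, adjusted p = 0.523). Atp6v0c-ps2, a copy of a subunit gene of the vacuolar proton pump, averaged 2.77 ± 0.528 CPM against 4.31 ± 1.30 CPM (log2 fold change -0.63). Its source gene Atp6v0c had a log2 fold change of -0.08 and was not called. Oaz1-ps, derived from the antizyme that restrains polyamine synthesis, averaged 15.3 ± 4.12 CPM against 21.4 ± 4.95 CPM. Dynlt1-ps1, a copy of a dynein light chain gene, averaged 1.86 ± 0.571 CPM against 2.99 ± 0.920 CPM. The copies of ribosomal protein genes Rpl17-ps10 and Rpl37rt had log2 fold changes of -0.67 and -0.61. Rps13-ps1 was called at a lower level, 0.352 ± 0.182 CPM against 0.80 ± 0.265 CPM, whereas Rps13 averaged 84.6 ± 18.8 CPM against 91.0 ± 16.5 CPM and was not called (adjusted p = 0.671). The pair was chosen after its values were seen. Of 39 cytosolic ribosomal protein genes tested as a list, none was called, with a median of -0.10.

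The mitochondrial genome showed the same split within a single molecule. Its genes encode subunits of the respiratory chain and the 2 ribosomal RNAs of the organelle, and they are transcribed as long shared precursors. Of 15 mitochondrial genes tested 6 were called lower and 0 higher, and these 6 lie next to each other in the genome, from mt-Co2 to mt-Nd4l. In 5 of the 6, 97.6% to 99.9% of the 100-base words occur in an annotated nuclear copy. The exception, mt-Atp8, shared none with an annotated gene, and copies outside the annotation were not looked for. Its level was low, at 0.365 ± 0.202 CPM in low-numbered and 0.669 ± 0.274 CPM in high-numbered mice (SD).

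mt-Co3 had 22.8 to 37.9 CPM, median 32.2, in low-numbered mice, against 27.2 to 122 CPM, median 80.6, in high-numbered mice. All 18 low-numbered libraries lay below the mean of the high-numbered, and 4 of the high-numbered libraries lay among the low ones. The log2 fold change was -1.28 ± 0.15 SE (adjusted p = 1.99e-06), and with the counts of each set of neighbouring numbers summed the adjusted p was 0.0821. Within the diets it was -1.28 in galactose, -1.15 in glucose and -1.44 in lactose mice, and none of these smaller fits passed the threshold (adjusted p = 0.142, 0.585 and 0.0652). mt-Co2, for another oxidase subunit, averaged 35.3 ± 7.88 CPM against 79.4 ± 32.9 CPM (log2 fold change -1.17, adjusted p = 1.38e-04). mt-Atp6, for a subunit of ATP synthase, averaged 25.6 ± 4.75 CPM against 54.4 ± 19.4 CPM (log2 fold change -1.09, adjusted p = 3.39e-05). mt-Nd3 averaged 3.47 ± 0.762 CPM against 6.75 ± 2.47 CPM (log2 fold change -0.96, adjusted p = 3.41e-04). mt-Atp8 and mt-Nd4l, further subunits of ATP synthase and complex I, had log2 fold changes of -0.87 and -0.67 (adjusted p = 0.0354 and 0.0411). mt-Nd4l was named after its values were seen.

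The neighbours outside this stretch did not pass the test. mt-Co1, for the catalytic oxidase subunit and next to mt-Co2 in the genome, averaged 18300 ± 4760 CPM in low-numbered and 17200 ± 4820 CPM in high-numbered mice (log2 fold change 0.09, adjusted p = 0.796). mt-Cytb, for cytochrome b, averaged 6500 ± 1820 CPM against 6170 ± 2010 CPM. The genes mt-Nd1, mt-Nd2, mt-Nd4, mt-Nd5 and mt-Nd6 had log2 fold changes between 0.03 and 0.07. The ribosomal RNA mt-Rnr1, which shares no 100-base words with another gene, averaged 425 ± 240 CPM against 606 ± 629 CPM (log2 fold change -0.49, adjusted p = 0.478), and mt-Rnr2 had a log2 fold change of -0.08. mt-Co1 shared 30.8% and mt-Nd4 60.8% of their 100-base words with another gene, less than the 5 copied genes, of which mt-Nd3 was lowest at 97.6%. Whether the share of words had a part in which genes were called was not tested. Per kilobase of transcript, mt-Co1 had a level of 11900 CPM per kilobase in low-numbered and 11100 in high-numbered mice. mt-Co3 had a level of 40.5 CPM per kilobase in low-numbered and 98.4 in high-numbered mice. Together the 5 copied genes amounted to 0.275 ± 0.0459% of the counts of the other 7 protein-coding mitochondrial genes in low-numbered mice and 0.638 ± 0.188% in high-numbered mice (SD, n = 18 and 21). Nuclear-encoded genes of oxidative phosphorylation had a median of -0.06 and none of 33 was called.

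**Figure D2:**
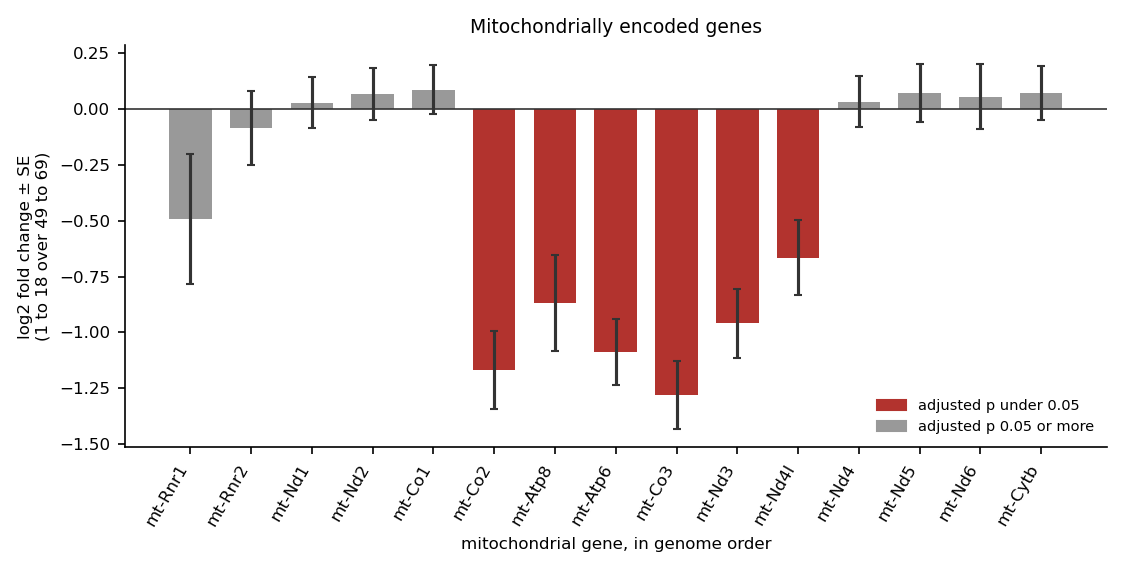
Log2 fold change of low-numbered over high-numbered mice for 15 mitochondrial genes in genome order, with standard errors. The 6 called genes (red) are adjacent, from mt-Co2 to mt-Nd4l, and fall between -0.67 and -1.28.

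Each of the 5 copied genes shared most words with 1 nuclear copy, and 3 of these 5 copies were called lower in low-numbered mice as well. The copies were named after their values were seen. Gm28437, the copy of mt-Co3, had 29.4 to 68.9 CPM, median 45.1, in low-numbered mice and 33.6 to 127 CPM, median 82.4, in high-numbered mice (log2 fold change -0.75, adjusted p = 0.00536). Gm28661, the copy of mt-Co2, averaged 47.1 ± 15.9 CPM against 78.5 ± 32.5 CPM (adjusted p = 0.0436). Gm28438 averaged 5.18 ± 1.46 CPM against 8.10 ± 3.06 CPM (adjusted p = 0.0411). Gm10925, the copy of mt-Atp6, averaged 53.6 CPM against 76.8 CPM and did not pass (adjusted p = 0.0925). Gm10222, the copy of mt-Nd4l, had a log2 fold change of -0.43 and did not pass either (adjusted p = 0.299). For mt-Co2, mt-Co3 and mt-Nd3, gene and copy were both called lower.

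For mt-Co3 and Tpt1-ps3, the difference did not fall at the gap between title numbers 18 and 49. In the libraries numbered 49 to 52, mt-Co3 had 27.2, 30.2, 31.3 and 30.5 CPM, within the range of numbers 1 to 18. In those numbered 53 to 69 it had 65.4 to 122 CPM, median 83.0, all above every library numbered 1 to 52. Tpt1-ps3 had 14.1 to 15.8 CPM in numbers 49 to 52 and 24.4 to 34.6 CPM in 53 to 69. The 5 copied mitochondrial genes amounted to 0.281 to 0.313% of the other 7 in numbers 49 to 52 and to 0.546 to 0.929% in numbers 53 to 69. mt-Co1, by contrast, averaged 18300 CPM in numbers 1 to 18, 15300 in 49 to 52 and 17600 in 53 to 69.

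In 111 of the 132 called genes, the mean of numbers 49 to 52 was nearer on the log scale to that of 1 to 18 than to that of 53 to 69. No gene separated numbers 1 to 18 from 49 to 69 without overlap. Numbers 1 to 18 and 53 to 69 did not overlap in 6 genes, which is 0.0391% of those tested, namely mt-Co2, mt-Atp6, mt-Co3, mt-Nd3 and 2 pseudogenes. This boundary was found from these genes, so the values describe it and do not test it. Numbers 52 and 53 belong to the same set of neighbouring numbers, so the summed counts of that set hold libraries from both sides of the boundary.

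Fits on parts of the libraries moved in the same way. Against numbers 49 to 60 alone 10 genes were called, all lower, and against 58 to 69 alone 329. Without 49 to 52, a choice made after the values were seen, 379 of 15419 genes were called (2.46%), and all 132 were among them. Between numbers 10 to 18 and 49 to 52, on either side of the gap, no gene was called in edgeR and 755 had an unadjusted p under 0.05. That fit compared 9 libraries with 4. Of the 132 genes 117 were tested in it, and their median log2 fold change in the original direction was 0.10, against 0.71 over all libraries. The genes were called in the fit over all libraries, which raises that fit's value, so these medians do not test the gap. Between numbers 10 to 18 and 49 to 52, the fold changes of mt-Co3, at 0.09, and Tpt1-ps3, at 0.07, had the opposite sign. The share of reads aligned to more than 1 place had a median of 5.56% in numbers 49 to 52 and 5.85% in 53 to 69, with overlapping ranges. Assigned counts were 20900000 to 21200000 in numbers 49 to 52 and 20000000 to 20900000 in 53 to 69. In numbers 10 to 18 they were 19700000 to 21400000. Whether depth had a part in the step was not tested. The labels give no read length or lane, so anything that changed with the title numbers cannot be told apart from them.

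Copies also varied within the low numbers. Summed over pseudogenes, the level was 2000 to 2160 CPM in numbers 1 to 9 and 1510 to 1860 CPM in 10 to 18, without overlap. The sum was 1660 to 2000 CPM in numbers 49 to 52 and 2080 to 2620 CPM in 53 to 69. Gm28437 averaged 58.3 CPM in numbers 1 to 9 and 37.4 CPM in 10 to 18, and Tpt1-ps3 20.7 and 15.8 CPM, whereas mt-Co3 averaged 32.3 and 31.1 CPM.

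**Figure D3:**
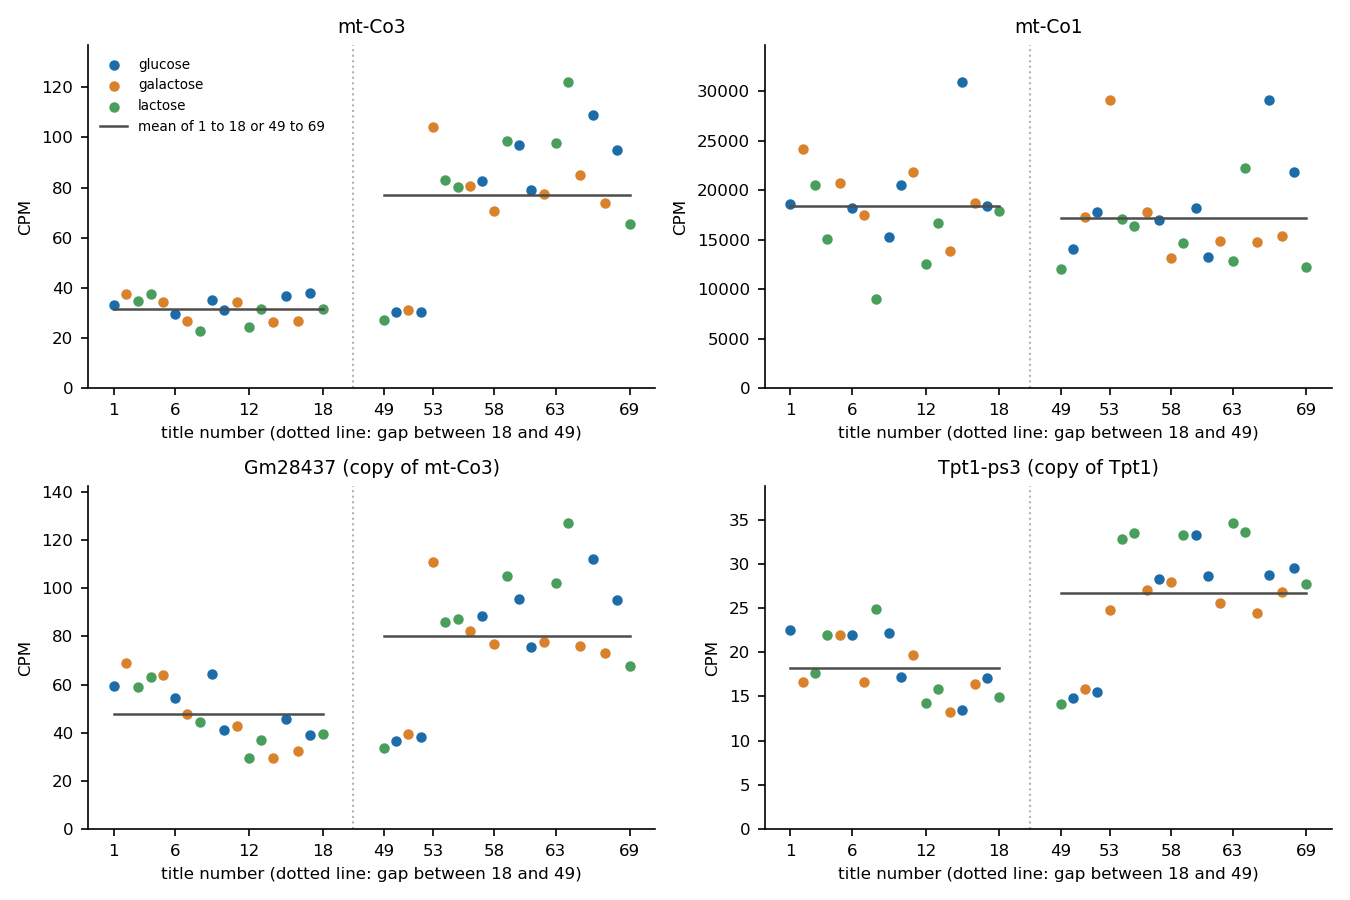
CPM of 4 genes in each of the 39 libraries by title number, coloured by diet, with lines at the means of 1 to 18 and 49 to 69. mt-Co3, Gm28437 and Tpt1-ps3 are low in numbers 49 to 52 and high from 53 on, and mt-Co1 shows no such step.

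Of the called protein-coding genes 14 shared no 50-base word with another gene, mt-Atp8 among them. Among the 28 protein-coding genes called higher, fold changes were small with a median of 1.17-fold. With Gm and Rik models and genes of a mean log2 CPM under 1 set aside, 12 were named by smallest p. They were Taf15, Smarce1, Bspry, Slc8a1, Sart1, Mfsd12, Hnrnpa0, Klc1, Ccdc124, Ppp1r9b, Safb and Cactin. Taf15, an RNA-binding protein of the FET family, had 70.3 to 94.9 CPM, median 84.9, in low-numbered mice and 60.2 to 91.1 CPM, median 78.1, in high-numbered mice (log2 fold change 0.18 ± 0.03 SE, adjusted p = 0.00316). The ranges overlapped widely, and 17 of 18 low-numbered mice lay above the mean of the high-numbered. Smarce1, a subunit of the SWI/SNF chromatin remodelling complex, averaged 42.4 ± 2.50 CPM against 38.6 ± 2.74 CPM. Sart1 and Cactin, both linked to pre-mRNA splicing, had log2 fold changes of 0.16 and 0.16. Hnrnpa0 and Safb, which bind RNA or chromatin, had 0.22 and 0.28. Klc1, a light chain of the microtubule motor kinesin, had 0.23. Slc8a1, the sodium-calcium exchanger of the plasma membrane, averaged 4.96 ± 1.27 CPM against 3.82 ± 0.810 CPM. Mfsd12, a carrier of lysosomes, averaged 15.3 ± 2.10 CPM against 12.2 ± 2.02 CPM.

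Some of these genes were near the level of numbers 1 to 18 in 49 to 52. Taf15 averaged 84.8 CPM in numbers 1 to 18, 82.0 in 49 to 52 and 73.7 in 53 to 69. Bspry averaged 52.7, 51.2 and 43.4 CPM, and Sart1 79.5, 81.4 and 68.5 CPM. The transcripts of the 28 genes had a median GC content of 54.8% and a median length of 3675.5 bases, beside 49.8% and 3383 bases over all protein-coding genes tested. Whether base composition had a part in their difference was not tested.

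Nuclear genes called lower with no shared 50-base word were Ms4a18, Slc25a15 and Kdelr2, the last 2 named after their values were seen. Ms4a18, a membrane-spanning protein of the MS4A family, had 16.6 to 55.3 CPM, mean 33.3, in low-numbered mice and 30.2 to 84.8 CPM, mean 52.8, in high-numbered mice (log2 fold change -0.67 ± 0.13 SE, adjusted p = 0.00529). In the order of the title numbers it averaged 27.2 CPM in 1 to 9, 39.4 in 10 to 18, 40.8 in 49 to 52 and 55.6 in 53 to 69. Its log2 fold change was -0.85 within galactose, -0.57 within glucose and -0.61 within lactose mice, with none past the threshold in these smaller fits. Slc25a15, the mitochondrial ornithine carrier of the urea cycle, averaged 291 ± 27.5 CPM against 326.5 ± 28.8 CPM (adjusted p = 0.0411). Kdelr2, a receptor that returns proteins to the endoplasmic reticulum, averaged 239 and 269 CPM. Tmem254a, a membrane protein that shares 73.1% of its 50-base words with other genes, averaged 25.8 ± 2.56 CPM against 29.7 ± 2.94 CPM (adjusted p = 0.0204).

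Plb1, phospholipase B of the brush border, was the called gene with the largest increase. It had 0.0542 to 6.04 CPM, median 0.414, in low-numbered mice and 0.0911 to 0.490 CPM, median 0.226, in high-numbered mice (log2 fold change 1.87 ± 0.39 SE, adjusted p = 0.00658). Only 12 of 18 low-numbered mice lay above the mean of the high-numbered, and the galactose mice among them had at most 0.573 CPM. Levels over 1 CPM occurred in 6 mice numbered 3, 4, 6, 8, 10 and 17, on glucose or lactose. Without number 10 the log2 fold change was 1.47 (adjusted p = 0.0176), and in limma with quality weights the adjusted p was 0.077. With sets of neighbouring numbers as a random block Plb1 was not called (log2 fold change 1.39, adjusted p = 0.25), nor with the counts of each set summed (adjusted p = 0.142). Plb1 was at 0.317 CPM in numbers 49 to 52, and 0.234 CPM in 53 to 69.

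**Figure D4:**
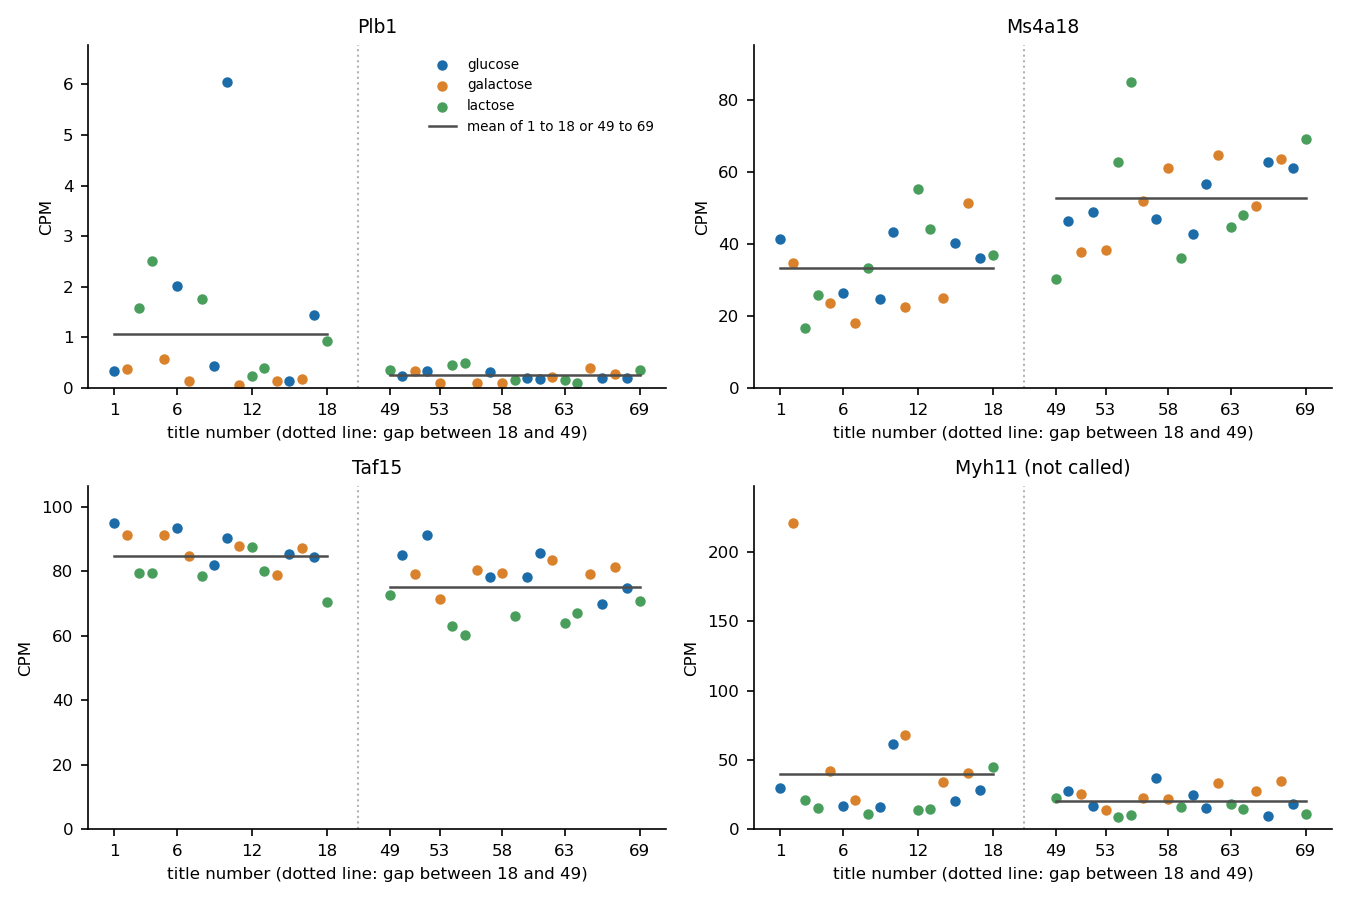
CPM by title number and diet for Plb1, Ms4a18, Taf15 and the smooth muscle myosin gene Myh11, with lines at the means of 1 to 18 and 49 to 69. Plb1 exceeds 1 CPM in 6 low-numbered libraries, and Myh11 reaches 221 CPM in title number 2.

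Across 48 lists of intestinal functions and cell types, 915 members were tested and 7 were called, the 6 mitochondrial genes and Plb1, which is in the villus base list. Over all tested genes 0.861% were called, and the share among list members was near that background. The lists for sugar digestion and transport (19 tested, median -0.09), lipid absorption (27, -0.01), fatty acid oxidation and ketogenesis (35, 0.02), peptide digestion (27, -0.07) and cell cycle (30, -0.03) held no called gene. Fabp1, the fatty acid binding protein of enterocytes, had a log2 fold change of 0.15 and was not called. Of the crypt and Wnt list none of 22 was called, with Nkd1, a Wnt antagonist, closest at a log2 fold change of 0.40 (adjusted p = 0.0777). Jund, an immediate early transcription factor, had 0.24 (adjusted p = 0.0744), and Msmo1, of cholesterol synthesis, -0.33 (adjusted p = 0.0628).

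Interferon-stimulated genes, which respond to viral and other alarm signals, had a median of -0.93 over 35 genes, with 20 at an unadjusted p under 0.05 and none called. Ifit3, a typical member, exceeded 100 CPM in 2 of 18 low-numbered mice and 5 of 21 high-numbered mice. Without those 7 libraries the list's median was 0.06. They were chosen by a member of this same list, so the shift toward 0 follows in part from that choice. Smooth muscle genes had a median of 0.51 over 20 genes, 16 of them at an unadjusted p under 0.05, none called. Lmod1, an actin nucleator of smooth muscle, came closest with 0.62 ± 0.17 SE (adjusted p = 0.0691), and DESeq2 called it (adjusted p = 0.0295). Myh11, the smooth muscle myosin, had 11.0 to 221 CPM, median 24.7, in low-numbered mice and 8.86 to 37.1 CPM, median 17.9, in high-numbered mice. Without number 2, the library at 221 CPM, the muscle median was 0.32. It was 0.96 within galactose, 0.18 within glucose and 0.23 within lactose mice.

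Pancreatic acinar genes had a median of 1.70 over 17 genes with none called. Their summed level had a median of 2450 CPM in low-numbered and 2540 CPM in high-numbered mice, and 1 low-numbered library, title number 11, reached 94600 CPM. Paneth cell genes, which encode antimicrobial peptides of the crypt base, had a median of -0.66 over 16 genes, with a range of -1.47 to 0.94. Defa22 was lowest at -1.47 (adjusted p = 0.145), and it shares 74.9% of its 50-base words with other genes. It averaged 4.73 CPM in numbers 1 to 9, 5.32 in 10 to 18, 4.45 in 49 to 52 and 15.8 in 53 to 69. Fibroblast, endothelial and enteric neuron lists had medians of 0.21, 0.14 and 0.38, with none called. None of 24 genes of B lineage cells was called, nor any of 13 genes of MHC class II presentation, which had a median of 0.02. Goblet, enteroendocrine and tuft cell lists had medians of -0.01, -0.02 and 0.06, and antimicrobial genes of -0.07, with none called.

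Clock genes turn over daily and their levels depend on the hour of killing. None of 20 core clock genes and none of 19 clock output genes was called, with medians of -0.01 and -0.12. Per1, a repressor of the loop, had a log2 fold change of -0.50 (adjusted p = 0.3). Of the output genes, Nampt, of NAD synthesis, was nearest at -0.42 (adjusted p = 0.124). Nr1d1, another repressor, had a log2 fold change of 0.02. Dbp, a transcription factor with steep daily swings, averaged 55.8 ± 57.1 CPM in low-numbered and 87.5 ± 64.1 CPM in high-numbered mice, and the low mean combined 20.5 CPM in numbers 1 to 9 with 91.2 CPM in 10 to 18. Further core clock genes, Csnk1e, Npas2, Per2, Clock, Arntl, Per3, Ciart, Bhlhe40, Nr1d2, Rora, Cry2, Nfil3, Cry1, Bhlhe41, Fbxl21 and Csnk1d, had log2 fold changes between -0.80 and 0.46. The other output genes, Tsc22d3, Hlf, Marveld1, Herpud1, Usp2, Coq10b, Leo1, Tef, Wee1, Lonrf3, Tspan4, Upp2, Avpr1a, Gramd4, Por, Tspo and Pdk4, had -0.71 to 0.25.

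**Figure D5:**
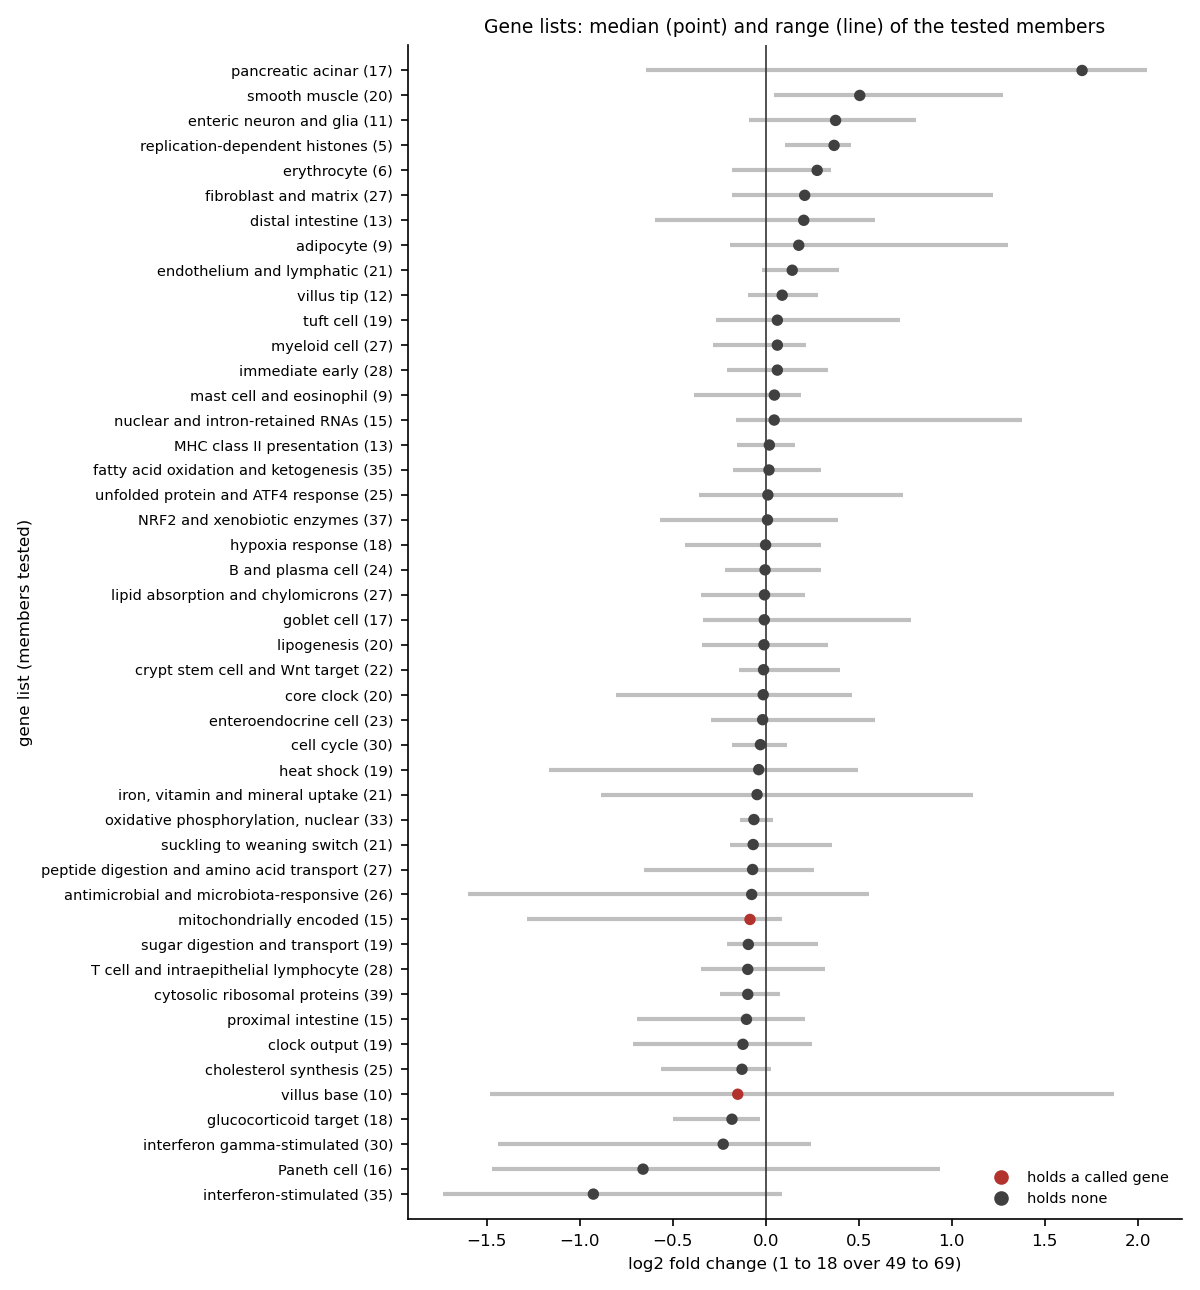
Median log2 fold change (point) and range (line) of the tested members of 46 lists with at least 5 tested genes, low-numbered over high-numbered mice. The red points are the mitochondrially encoded and villus base lists, the ones with called genes.

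Whether the effect of diet differed between low and high numbers was tested as an interaction over all genes. None of 15339 genes was called in edgeR, with 888 at an unadjusted p under 0.05, while DESeq2 called 10 and limma with quality weights 2. Cd36, a fatty acid uptake receptor, averaged 186 CPM in low-numbered and 540 CPM in high-numbered lactose mice, with 218 and 186 CPM in glucose mice (interaction adjusted p = 0.207). Scd1, a fatty acid desaturase, averaged 9.12 ± 4.91 and 72.1 ± 91.5 CPM in lactose mice (adjusted p = 0.207). In glucose mice Scd1 went the other way, at 43.3 ± 31.3 and 18.4 ± 9.74 CPM. The smallest interaction p was that of Rhobtb1, at 4.06 ± 1.43 CPM in low-numbered and 10.3 ± 4.45 CPM in high-numbered lactose mice (adjusted p = 0.0929).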

How the data were processed

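Total RNA of the scrapings was sequenced on a DNBSEQ platform, per the labels' protocols. Counts of reads per gene, not normalized, were deposited for each mouse. The submitters' processing notes name FastQC, STAR, HTSeq and GRCm39. Versions, strand setting, annotation and read length are not given in the sources used here. Each file held 56980 genes and 5 summary lines, which were kept out of library sizes. Symbols were matched for 52073 identifiers from a table of an earlier build.

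Genes were filtered with filterByExpr by diet and title-number group, scaled with TMM factors and tested with edgeR 4.0.16 (R 4.3.3), with diet and title-number group as terms. P values were adjusted over all genes at 0.05. Called genes were named by rule, the 12 of smallest p in each direction that have a symbol and a mean log2 CPM not under 1. Gm and Rik models were left out of this rule. Each of 48 lists added at most 5 called members or, with none called, its 2 genes of smallest p, and the clock genes were added. Some results are not reported here. Genes named beyond this rule were chosen after their values were seen. The members and lists were chosen with earlier results of these data known. Shared words of 50, 100 and 150 bases were counted in GENCODE M21 transcripts. The fit was tested on simulated data. Nothing states that the mice of a group came from separate cages, so p-values measure only the spread between these samples. Alternatives were limma 3.58.1, DESeq2 1.42.0, other scaling, filters, covariates and subsets of libraries.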

Additional observations from a re-analysis of the deposited data

How the results depend on the processing

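The 132 genes called became 73 with at least 1 CPM in 18 libraries (53 lower, 38 of them pseudogenes), 227 in DESeq2 (71 higher, 156 lower), 239 in limma with quality weights (77 higher, 162 lower, 122 pseudogenes lower) and 324 with a clock score as a term (115 higher, 209 lower, 138 pseudogenes lower). Blocking by sets of neighbouring numbers left 53 (7 higher, 46 lower, 36 pseudogenes lower), and sums over the sets left 0 in edgeR (1394 at an unadjusted p under 0.05). Within galactose or glucose mice 0 were called and within lactose mice 4 (1 higher, 3 lower, 0 pseudogenes). Against numbers 49 to 60 there were 10 (0 higher, 10 lower, 6 pseudogenes) and against 58 to 69 329 (103 higher, 226 lower, 147 pseudogenes lower). Chosen after seeing the data, leaving out 49 to 52 gave 379 (133 higher, 246 lower, 173 pseudogenes lower), 10 to 18 against 49 to 52 gave 0, and genes without a shared 50-base word alone gave 3 of 5547 (2 higher, 1 lower, 0 pseudogenes). The genes called higher numbered 46 with centred title number as a term and 19 without libraries high in Ifit3.

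The 14 protein-coding genes without a shared word became 44 in DESeq2, 39 in limma with quality weights, 29 with centred title number, 68 with the clock score, 60 against 58 to 69, 75 without 49 to 52, 9 without title number 2 or 10, 7 without libraries high in Ifit3, 5 without a filter and 3 with the block or when tested alone, and 0 in the sums, within each diet, against 49 to 60 and in 10 to 18 against 49 to 52. The interaction gave 10 genes in DESeq2 and 2 in limma with quality weights. Without title number 11 the assigned counts were 261500 higher in low-numbered libraries (adjusted p = 0.0357).

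In 10 to 18 against 49 to 52, 89 of the 117 called genes tested had the same sign as over all libraries. Among the called genes named by rule, signs turned for mt-Co3 (0.087), mt-Atp6 (0.10), mt-Co2 (0.21), mt-Nd3 (0.25), mt-Atp8 (0.079), Atp6v0c-ps2 (0.031), Tpt1-ps3 (0.073), Rpl37rt (0.12), Sart1 (-0.071), Hnrnpa0 (-0.053) and Ccdc124 (-0.075), all log2. Named beyond the rule, mt-Nd4l (0.26), Gm28437 (0.04), Gm28661 (0.24) and Gm28438 (0.04) turned too. Of the other results for named genes 3282 kept their side of the threshold, 187 lost a call and 46 gained one. A turn of sign was counted only where a fit called the gene, so some of the 3282 changed sign. The causes of these changes were not tested. No paired analysis was possible because no title number occurs in both groups.

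Numbers 49 to 52 are only 4 libraries. The files do not record read placement, so RNA and placement cannot be told apart for these genes.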
